A study of Mus musculus with 24 samples.

Results

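Arc, Homer1, the neuronal pentraxins Nptx1, Nptx2 and Nptxr, Inhba, Plk2 and Plk3 are genes whose products act on synapses after neuronal activity. They were chosen by name, with earlier results of these data known, and all 8 were found among the 51826 gene identifiers of the count table. RNA of the dorsal hippocampus of mice on the C57BL/6J background, 2 to 4 months old, was sequenced in 24 libraries from 7 groups. The labels give all mice as male, whereas the study's methods name both sexes in its experiments. The mice were either WT or CBP KIX/KIX littermates, and tissue of trained mice was taken an hour after training. CBP KIX/KIX mice carry germline point mutations in the KIX domain of the coactivator CBP, in every cell, that block its binding to phosphorylated CREB and to c-Myb. RNA-Seq 1 held 3 WT homecage libraries, 3 WT libraries after Morris water maze (MWM) training and 3 CBP KIX/KIX libraries after MWM training, all made from total RNA depleted of ribosomal RNA. RNA-Seq 2 held 3 WT homecage and 4 CBP KIX/KIX homecage libraries, and 4 libraries of each genotype after contextual fear conditioning (CFC), all made from polyA-selected RNA. Training task, library type and sequencing platform changed together between the experiments and cannot be told apart, and CBP KIX/KIX homecage mice were measured only in RNA-Seq 2.

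Activity at glutamatergic synapses switches on immediate-early genes through CREB and other factors, and some of these genes encode proteins that work at the synapse itself. Arc binds the endocytic machinery and drives removal of AMPA receptors, while the long Homer1 scaffolds link group I metabotropic glutamate receptors to intracellular calcium channels and to Shank, and the short form Homer1a, made after activity, uncouples them. The secreted pentraxins Nptx1 and Nptx2 (also called Narp) and the membrane-bound pentraxin receptor Nptxr form complexes that cluster AMPA receptors, and Nptx2 is the member known for its induction by activity. Inhba encodes the subunit of activin A, a secreted ligand with neuroprotective roles, and Plk2 and Plk3 are Polo-like kinases, of which Plk2 is known to weaken synapses after prolonged activity. The labels do not say which libraries came from separate animals, so p-values measure the spread between these samples. In bulk tissue a lower level cannot be told apart from fewer cells that express the gene. On GRCm38 with GENCODE M21 coordinates the genes lie at 15:74669083-74672570 (Arc, minus strand), 13:93299635-93405129 (Homer1, plus), 11:119538719-119547753 (Nptx1, minus), 5:144545902-144557478 (Nptx2, plus), 15:79786351-79804766 (Nptxr, minus), 13:16011851-16031621 (Inhba, plus), 13:110395046-110400844 (Plk2, plus) and 4:117128655-117133963 (Plk3, minus), and counts cover their exons.

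RefSeq start sites on GRCm38.p6 gave the 250 bases upstream of the start for 4 of the 8 genes (Homer1, Inhba, Plk2 and Plk3), with 2 starts for Homer1. The windows of the genes that rose with training and had one are printed 5′ to 3′ on the coding strand, because the cAMP response element is the site that CREB binds. Capitals mark every match, on either strand, to the full element TGACGTCA or to its shorter core CGTCA, which the full element contains on both strands. The windows lie at chr13:93303507-93303756 on the plus strand (Homer1), chr13:110394794-110395043 on the plus strand (Plk2) and chr4:117133964-117134213 on the minus strand (Plk3).
Homer1: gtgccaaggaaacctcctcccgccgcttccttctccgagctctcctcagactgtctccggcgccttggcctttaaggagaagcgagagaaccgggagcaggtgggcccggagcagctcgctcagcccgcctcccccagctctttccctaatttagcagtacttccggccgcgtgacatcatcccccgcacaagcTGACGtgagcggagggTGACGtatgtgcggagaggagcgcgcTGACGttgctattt
Plk2: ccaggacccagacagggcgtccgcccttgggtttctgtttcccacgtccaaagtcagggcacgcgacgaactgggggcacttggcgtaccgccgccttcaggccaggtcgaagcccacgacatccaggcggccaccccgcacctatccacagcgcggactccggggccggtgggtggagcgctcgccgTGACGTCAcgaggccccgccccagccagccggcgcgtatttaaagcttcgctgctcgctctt
Plk3: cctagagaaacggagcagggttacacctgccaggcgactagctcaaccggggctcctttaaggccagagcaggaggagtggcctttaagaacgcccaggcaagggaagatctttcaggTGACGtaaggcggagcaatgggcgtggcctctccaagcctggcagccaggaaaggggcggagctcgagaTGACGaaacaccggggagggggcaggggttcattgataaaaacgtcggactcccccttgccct
The full element was found in the Plk2 window alone among the 5 windows, with its first base at position -62 from the start, and 1.55% of all 32851 RefSeq windows of this length hold it. The shorter core was found 3 times upstream of this Homer1 start, at -56, -40 and -14, and 2 times upstream of Plk3, at -132 and -63, and it occurs in 17.8% of all windows. The second Homer1 start, in the window chr13:93307784-93308033, and Inhba had neither. Neither the AP-1 element TGANTCA (6.75% of all windows) nor a CArG box (1.47%) occurred in any of the 5 windows, and TATAAA (12.4%) occurred once, at -91 of Inhba. A match describes letters, not a bound site.

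Library totals ran from 38174044 to 65709282 counts in RNA-Seq 1 and from 15385836 to 46056290 in RNA-Seq 2, where replicates 1 and 2 (30143949 or more) were deeper than replicates 3 and 4 (20568337 or less). No member fell below 94 counts in any library, far above the floor of 3 counts (0.0457 to 0.195 CPM), so depth did not limit detection. The 8 excitatory hippocampal markers summed to 3247 to 6655 CPM, counts scaled to library size (CPM) by upper quartile within an experiment, and every one was above the floor in all libraries. Choroid plexus markers summed to 29.0 to 4558 CPM and varied within every group. From these counts 3 libraries stood apart, by a different measure in each experiment. In the library labelled WT homecage replicate 3 of RNA-Seq 1, counts differed from those of the other WT homecage libraries by a chi-square per gene of 80.6 and 91.4, against 12.6 to 31.4 for the other pairs of that experiment. By the number of genes more than 2-fold from the median of the other libraries it did not stand apart, with 36 of 11171, against 4 to 47 in the other libraries of RNA-Seq 1. CBP KIX/KIX homecage replicates 3 and 4 had 124 and 161 of 11955 genes more than 2-fold from the median of the other libraries, against 33 to 71 in the rest of RNA-Seq 2. By chi-square per gene this pair did not stand apart, at 22.4 to 29.1 against replicates 1 and 2 of its group. The highest value in RNA-Seq 2 was 49.4, between WT CFC replicates 1 and 2. Results that rest on the 3 libraries are given with and without them. Crebbp, which encodes CBP, was at 153 ± 13.1 CPM in CBP KIX/KIX MWM and 164 ± 24.7 CPM in WT MWM libraries (SD, n = 3 each), and point mutations leave the gene's counts no check of the genotype.

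Per kilobase of exon, Nptxr, Nptx1, Arc and Plk2 were the 4 most abundant members in every group. In WT homecage libraries of RNA-Seq 2, mean levels were 161 CPM per kb for Nptxr, 133 for Nptx1, 50.05 for Plk2, 24.3 for Arc, 9.83 for Nptx2, 8.04 for Homer1, 3.83 for Plk3 and 0.935 for Inhba, and no neighbours in this order overlapped between their lowest and highest library. Arc stood above Plk2 in WT homecage libraries of RNA-Seq 1, at 77.2 against 37.2 CPM per kb, and the order of the other 6 was the same, with Nptxr (164 to 294) and Nptx1 (111 to 201) overlapping. After training Arc overtook Plk2 in RNA-Seq 2 too, at 74.7 against 52.6 CPM per kb in WT CFC libraries, and reached the level of Nptx1 in WT MWM libraries (146 and 137 CPM per kb, overlapping). Nptx2 and Homer1, apart in every WT group and in CBP KIX/KIX MWM libraries, overlapped in CBP KIX/KIX CFC libraries at 8.01 and 8.40 CPM per kb. They also overlapped in CBP KIX/KIX homecage libraries, at 7.40 to 64.8 and 6.92 to 12.4 CPM per kb. Nptxr shares 890 exonic bases with Npcd on the same strand, and how the counting assigned reads there is not given in the sources used here, so its level is uncertain. Counts per gene do not separate Homer1a from the long Homer1 forms.

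**Figure D1:**
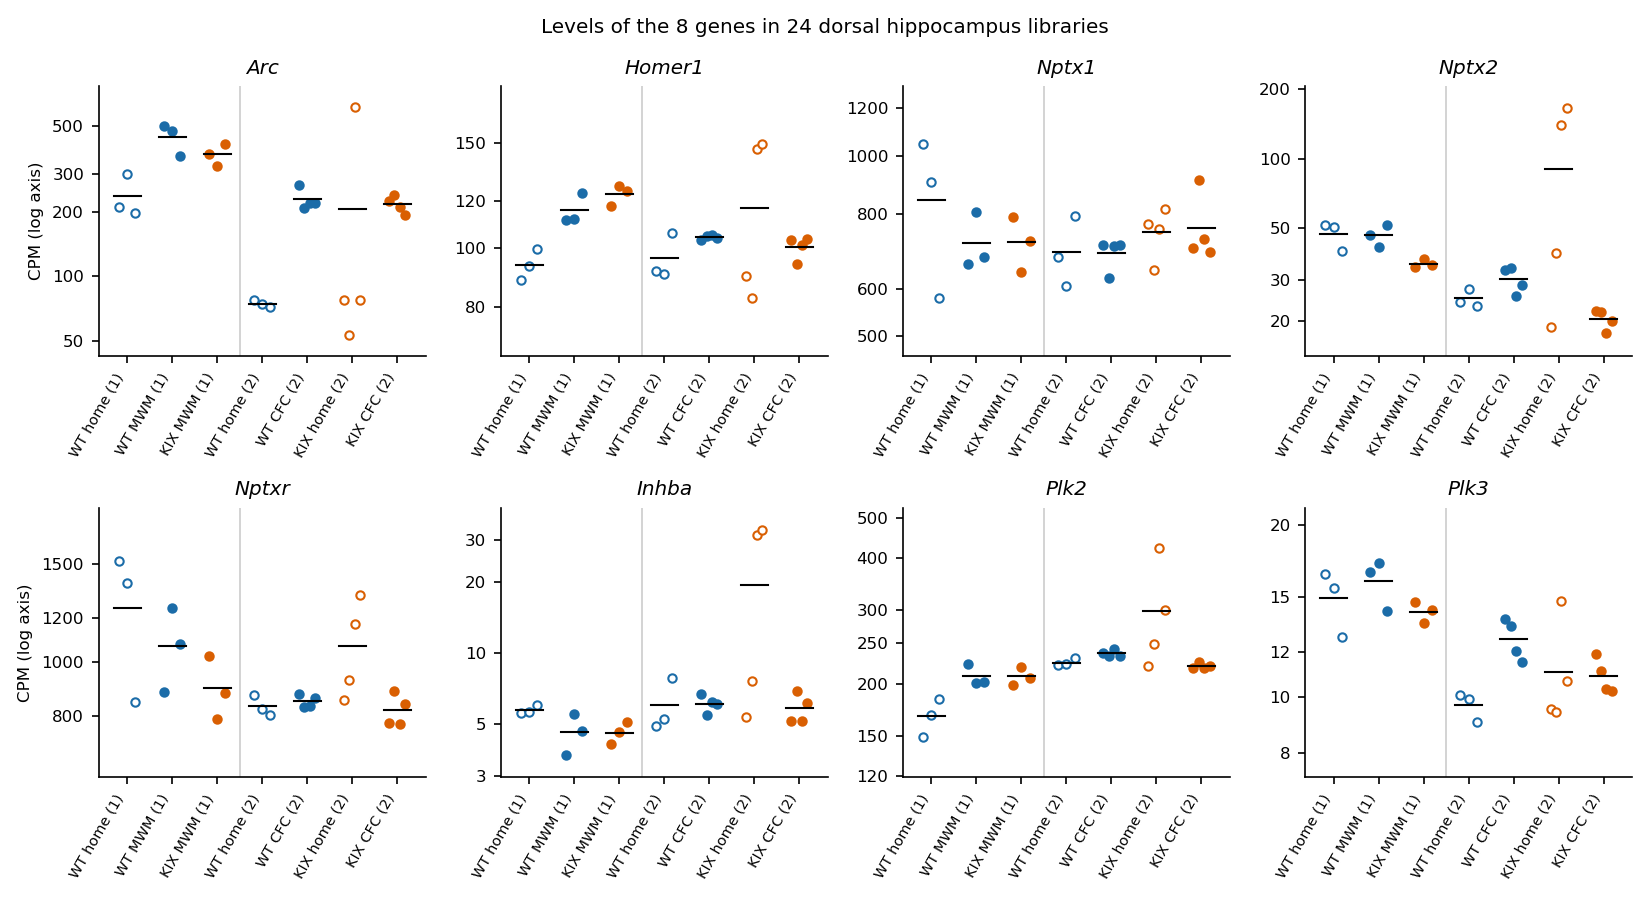
Level of each gene in every library, in CPM on a log axis, with groups along the x axis (1, RNA-Seq 1; 2, RNA-Seq 2; KIX, CBP KIX/KIX; open circles, homecage; filled circles, trained; bar, group mean). Arc is higher after training in WT libraries of both experiments, Nptx2 is lower in CBP KIX/KIX than in WT libraries after both tasks, and 2 CBP KIX/KIX homecage libraries lie far above the others for Nptx2 and Inhba.

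The first comparison asked which of these genes respond to training in WT mice, with both tasks in one model. Of the 8 members 4 rose, where 0.794% of 22038 genes tested passed in either direction: Arc, Homer1, Plk2 and Plk3. The members and the activity markers below were chosen with earlier results of these data known, so their counts are not independent tests. Arc was by far the most responsive. In RNA-Seq 1 it was at 211, 299.8 and 197 CPM in WT homecage libraries and at 500.3, 474 and 363 CPM after MWM training. In RNA-Seq 2 it was at 77.2, 74.1 and 71.8 CPM in WT homecage libraries and at 266, 209, 219 and 219.8 CPM after CFC. Every trained WT library lay above every WT homecage library of its experiment. The log2 fold change over both experiments was 1.28 ± 0.09 (SE, edgeR quasi-likelihood test, Benjamini-Hochberg adjusted p = 1.63e-05), with a 95% interval from 1.08 to 1.48. Over both experiments all 10 activity markers listed as a check of training, such as Fos and Egr1, rose as well. Their median log2 fold change was 0.84 against -0.03 over all genes. After MWM training alone Npas4 had -0.07, and Dusp1 (0.14), Ier2 (0.20) and Fosb (0.27) had the smallest positive values. Fos (1.14) and Egr2 (2.21) passed after MWM training alone (edgeR adjusted p = 0.0125 and 0.023). After CFC all 10 were positive, with Npas4 at 1.45 ± 0.85 (SE), and none passed. Of the cell type markers over both experiments, Cldn5 of endothelium fell (-0.49, 1 of 4) and Spink8 of excitatory neurons rose (0.33, 1 of 8, edgeR adjusted p = 0.0334 and 0.0481). None of 5 choroid plexus markers passed, with values from 0.70 (Kl) to 2.39 (Ttr) and a lowest edgeR adjusted p of 0.0595 (Folr1). The part of these markers in the members' values was not tested.

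The other responders moved by much less. Homer1 was at 88.5, 93.4 and 99.6 CPM in WT homecage and at 112, 112 and 124 CPM in WT MWM libraries, without overlap, but at 91.8, 90.8 and 106 CPM in WT homecage and at 103, 105, 105 and 104 CPM in WT CFC libraries, where one homecage library exceeded all 4 trained ones. Its log2 fold change was 0.21 ± 0.03 (SE, edgeR adjusted p = 0.0175). Plk2 was at 149, 168 and 184 CPM in WT homecage and at 223, 201 and 201 CPM in WT MWM libraries. In RNA-Seq 2 it was at 221, 223 and 230.3 CPM in WT homecage and at 237, 233, 242 and 234 CPM in WT CFC libraries. Groups did not overlap in either experiment, and Plk2 rose by a log2 fold change of 0.20 ± 0.03 (SE, edgeR adjusted p = 0.0224). How many of all genes separated without overlap was not counted in any comparison. Plk3 was at 10.1, 9.93 and 9.06 CPM in WT homecage and at 13.7, 13.3, 12.03 and 11.5 CPM in WT CFC libraries, with no overlap, whereas in RNA-Seq 1 WT homecage libraries (16.4, 15.5 and 12.7 CPM) and WT MWM libraries (16.6, 17.2 and 14.2 CPM) overlapped. Its log2 fold change was 0.25 ± 0.05 (SE, edgeR adjusted p = 0.0492). Arc alone stayed past the threshold without factors for unwanted variation or after GC normalization, where Homer1, Plk2 and Plk3 gave edgeR adjusted p from 0.590 to 0.722 and from 0.0864 to 0.403. GC normalization gave Plk3 a value of 0.48. Their calls also turned on single libraries. Arc passed without any one library. It was alone without WT homecage replicate 1 of either experiment, and 2 members passed without WT homecage replicate 2 of RNA-Seq 1, any WT MWM library or WT CFC replicate 3 or 4. Without WT homecage replicate 3 of RNA-Seq 1, 5 passed, Nptxr (-0.18) being the addition. Over all genes, leaving out any 1 library gave 29 to 2415 calls in this comparison, against 175 with all libraries.

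Pentraxins and Inhba did not pass in the same comparison. Nptx2 had a log2 fold change of 0.14 ± 0.06 (SE, edgeR adjusted p = 0.215). It was at 51.6, 50.5 and 39.8 CPM in WT homecage and at 46.9, 41.4 and 51.5 CPM in WT MWM libraries, and at 24.1, 27.5 and 23.1 CPM in WT homecage and 33.2, 33.9, 25.5 and 28.5 CPM in WT CFC libraries. Of the 4 WT CFC libraries 3 exceeded all WT homecage libraries, and in RNA-Seq 1 the groups overlapped. Nptx1 and Nptxr, the pentraxins that were abundant in every group, had log2 fold changes of -0.10 and -0.08 (edgeR adjusted p = 0.462 and 0.543). Inhba, at 3.70 to 7.83 CPM over the 13 WT libraries, had -0.13 ± 0.09 (SE, edgeR adjusted p = 0.509), with all 3 WT MWM libraries below the RNA-Seq 1 homecage libraries and the RNA-Seq 2 groups overlapping. The 95% intervals ran from -0.24 to 0.04 for Nptx1, from 0.02 to 0.26 for Nptx2, from -0.21 to 0.05 for Nptxr and from -0.34 to 0.07 for Inhba.

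Fitted within each experiment, no member passed over all libraries. In WT MWM against WT homecage, where 0.0135% of 22276 genes passed, Arc had a log2 fold change of 0.92 ± 0.17 (SE, edgeR adjusted p = 0.145), Plk2 0.32 ± 0.10 and Homer1 0.30 ± 0.09. Arc passed there without WT homecage replicate 2. Leaving out any 1 library gave 0 to 2418 calls over all genes in this comparison, against 3 with all libraries. Without WT homecage replicate 3 of RNA-Seq 1, Arc (0.80), Plk2 (0.39) and Homer1 (0.34) rose and Nptx1 (-0.45) fell, with edgeR adjusted p from 0.0132 to 0.0263. That library held the lowest Nptx1 and Nptxr levels of its experiment but for Nptxr in CBP KIX/KIX MWM replicate 2: Nptx1 was at 579 CPM against 1047 and 904 in the other homecage libraries, and Nptxr at 849 against 1519 and 1386. Its excitatory marker sum was 3247 CPM, against 3299 to 5290 in the other 8 libraries, with 2 of 8 markers below all of them, and the part of this in the Nptx1 and Nptxr values was not tested. In WT CFC against WT homecage, where 0% of 18851 genes passed (450 at an unadjusted p under 0.05 and 0 by DESeq2), Arc had a log2 fold change of 1.62 ± 0.63 (SE, edgeR adjusted p = 1.00). That fit estimates 1 spread per gene over all 15 libraries, CBP KIX/KIX homecage replicates 3 and 4 included. Without those libraries Arc rose by 1.61 ± 0.12 (SE, edgeR adjusted p = 1.27e-05), and with only the 7 WT libraries of the comparison it passed too. Plk3 gave 0.38 ± 0.09 without them (edgeR adjusted p = 0.454). Within the deeper libraries (replicates 1 and 2) WT CFC exceeded WT homecage 3.14-fold for Arc. Within the shallower ones, which held only 1 WT homecage library, it was 3.05-fold.

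The response of Arc was 0.70 ± 0.20 larger on the log2 scale after CFC than after MWM training (SE, edgeR adjusted p = 0.534), a difference that did not pass. Across 22038 genes 0.0136% differed in this way, no member among them. Plk2 had the opposite sign, at -0.24 ± 0.11 (edgeR adjusted p = 0.652). Without WT homecage replicate 3 of RNA-Seq 1 the Arc difference was 0.82 (edgeR adjusted p = 0.0362).

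**Figure D2:**
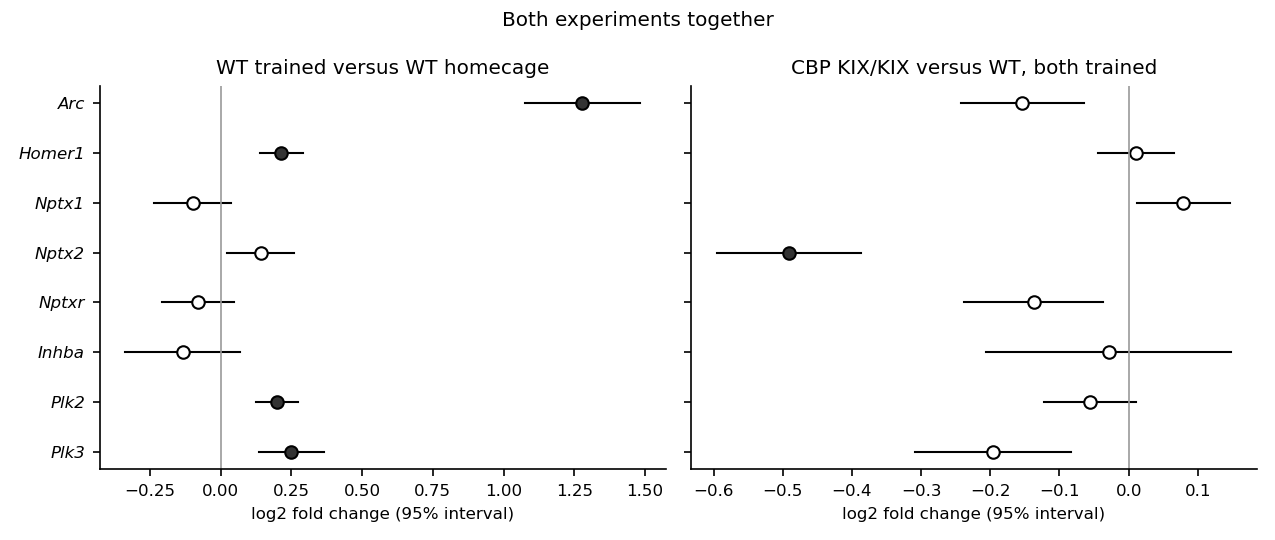
Log2 fold changes of the 8 genes over both experiments with 95% intervals, for WT trained against WT homecage (left) and trained CBP KIX/KIX against trained WT (right); filled points passed an adjusted p of 0.05. Arc (1.28), Homer1, Plk2 and Plk3 are filled at the left, and Nptx2 (-0.49) alone at the right.

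The second comparison asked which of the genes differ between genotypes after training, and it shares its trained WT libraries with the first. Of the 8 members only Nptx2 passed, and it fell, where 2.42% of 21489 genes tested passed in either direction. After MWM training it was at 46.9, 41.4 and 51.5 CPM in WT and at 33.9, 37.0 and 34.6 CPM in CBP KIX/KIX libraries. After CFC it was at 33.2, 33.9, 25.5 and 28.5 CPM in WT and at 21.9, 21.8, 17.6 and 19.9 CPM in CBP KIX/KIX libraries. Every trained CBP KIX/KIX library lay below every trained WT library of its experiment, and how many of all genes separated in this way was not counted. The log2 fold change was -0.49 ± 0.05 (SE, edgeR adjusted p = 0.000187), with a 95% interval from -0.60 to -0.39. Group means differed by -24.5% after MWM training and by -32.9% after CFC. Nptx2 passed under all 7 alternative settings and with each of the 14 libraries left out in turn. GC normalization moved its value to -1.19 (edgeR adjusted p = 0.0425).

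For Arc the genotype difference after training was small beside its response. CBP KIX/KIX libraries were at 371, 327 and 415 CPM after MWM training and at 225, 240.4, 211 and 192 CPM after CFC, overlapping with WT libraries in both experiments. The log2 fold change was -0.15 ± 0.04 (SE, edgeR adjusted p = 0.0666), with a 95% interval from -0.24 to -0.06. It passed by DESeq2 (adjusted p = 0.00697) and in the fit without a filter on low counts, and not without the factors of unwanted variation (edgeR adjusted p = 0.598). Arc also passed when WT MWM replicate 3, CBP KIX/KIX MWM replicate 3, WT CFC replicate 2 or CBP KIX/KIX CFC replicate 1 or 2 was left out. Plk3 had a log2 fold change of -0.20 ± 0.05 (SE, edgeR adjusted p = 0.0653), and passed by DESeq2 (adjusted p = 0.0451) and without WT MWM replicate 3, WT CFC replicate 4 or CBP KIX/KIX CFC replicate 1. It was at 14.7, 13.5 and 14.2 CPM in CBP KIX/KIX MWM libraries and at 11.9, 11.1, 10.3 and 10.3 CPM in CBP KIX/KIX CFC libraries, of which 3 of 4 lay below all WT CFC libraries. Nptxr had -0.14 ± 0.05 and Nptx1 0.08 ± 0.03 (edgeR adjusted p = 0.134 and 0.197). Homer1, Plk2 and Inhba had 0.01, -0.06 and -0.03, with 95% intervals of -0.04 to 0.07, -0.12 to 0.01 and -0.21 to 0.15.

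Of the 10 activity markers 6 fell in the same comparison, with a list median of -0.31 against -0.01 over all genes. Junb fell by 0.31 and Fos by 0.51 on the log2 scale (edgeR adjusted p = 0.000723 and 0.000936), both of them subunits of the AP-1 factor. Of 5 astrocyte markers Gfap (-0.29) and Aldh1l1 (-0.26) fell and Gja1 (0.16) rose. Single markers of excitatory neurons (Fibcd1, -0.30, 1 of 8), inhibitory neurons (Sst, -0.19, 1 of 6) and neocortex (Cux2, -0.26, 1 of 5) fell too, and none of choroid plexus, oligodendrocytes, microglia, endothelium or thalamus passed. Their part in the Nptx2 difference was not tested.

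Within one experiment the genotype difference of Nptx2 was -0.41 ± 0.11 after MWM training (SE, edgeR adjusted p = 0.813), where 0% of 22276 genes passed (1286 at an unadjusted p under 0.05, and 7 by DESeq2). After CFC it was -0.57 ± 0.47 (SE, edgeR adjusted p = 1.00), where 0.0106% of 18851 genes passed, and -0.58 ± 0.18 without CBP KIX/KIX homecage replicates 3 and 4 (edgeR adjusted p = 1.00). In the deeper CFC libraries the ratio of CBP KIX/KIX to WT means was 0.652, and in the shallower ones 0.695. Plk2 also showed no overlap after CFC, at 219, 226, 218 and 219.9 CPM in CBP KIX/KIX libraries, all below WT CFC, with a log2 fold change of -0.10 ± 0.14 (SE). The share of all genes without overlap between these groups was not counted. Whether the genotype difference varied between the experiments was tested over 21489 genes, of which 0% passed (1389 at an unadjusted p under 0.05, and 0 by DESeq2). For Nptx2 that change was -0.18 ± 0.14 and for Homer1, the member with the lowest p, -0.15 ± 0.07 (SE, edgeR adjusted p = 0.7995 and 0.755).

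In CBP KIX/KIX homecage replicates 1 to 4, Nptx2 was at 18.8, 39.2, 140.0 and 164 CPM, against 23.1 to 27.5 CPM in WT homecage libraries. Inhba was at 5.34, 7.55, 31.5 and 33.0 CPM, against 4.87 to 7.83 CPM. Replicates 3 and 4 were 5.62 and 6.60 times the WT homecage mean for Nptx2 and 5.27 and 5.52 times for Inhba. In both libraries these genes, and also Homer1 (146 and 149 CPM), Plk2 (424 and 300.0 CPM) and Nptxr (1171 and 1321 CPM), lay above all 13 other libraries of RNA-Seq 2. How many of all genes did so was not counted. Of 11955 genes, 111 in replicate 3 and 100 in replicate 4 were more than 2-fold above the median of the other libraries. Arc differed between these 2 libraries. It was at 617 CPM in replicate 3, 8.30 times the WT homecage mean and above every CFC library, and at 77.9 CPM in replicate 4, next to 77.7 and 53.2 CPM in replicates 1 and 2. Plk3 followed Arc, at 14.7 CPM in replicate 3 and 10.7 CPM in replicate 4, against 9.53 and 9.45 CPM in the remaining pair. Nptx1, at 769, 644, 754 and 815 CPM, overlapped with WT homecage libraries.

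Activity markers were high in the same library as Arc. In replicate 3, 9 of 10 were above all 13 other libraries of RNA-Seq 2, trained ones included, with Fos at 25.8 and Egr2 at 54.2 times the WT homecage mean, and Dusp1 was at 2.12 times. In replicate 4 the 10 markers lay between 0.593 and 1.27 times that mean. Astrocyte markers summed to 4143 and 5059 CPM in replicates 3 and 4, against 2890 to 3442 CPM in the other 13 libraries, with 3 of 5 markers above all of them. Excitatory markers summed to 5465 and 5007 CPM, against 5353 to 6655 CPM. In each library 2 of 8 were below all others, and 1 of 8 was above all others in replicate 4. Inhibitory neuron markers summed to 784 and 965 CPM, against 734 to 897 CPM. Of these 6 markers 1 was above all others in replicate 3, and 3 were above and 2 below all others in replicate 4. Neocortex markers summed to 158 and 136 CPM, against 163 to 211 CPM. Both libraries belong to the shallower set, in which WT homecage replicate 3 was the only other homecage library. The part of depth and of these marker differences in the members' levels was not tested.

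**Figure D3:**
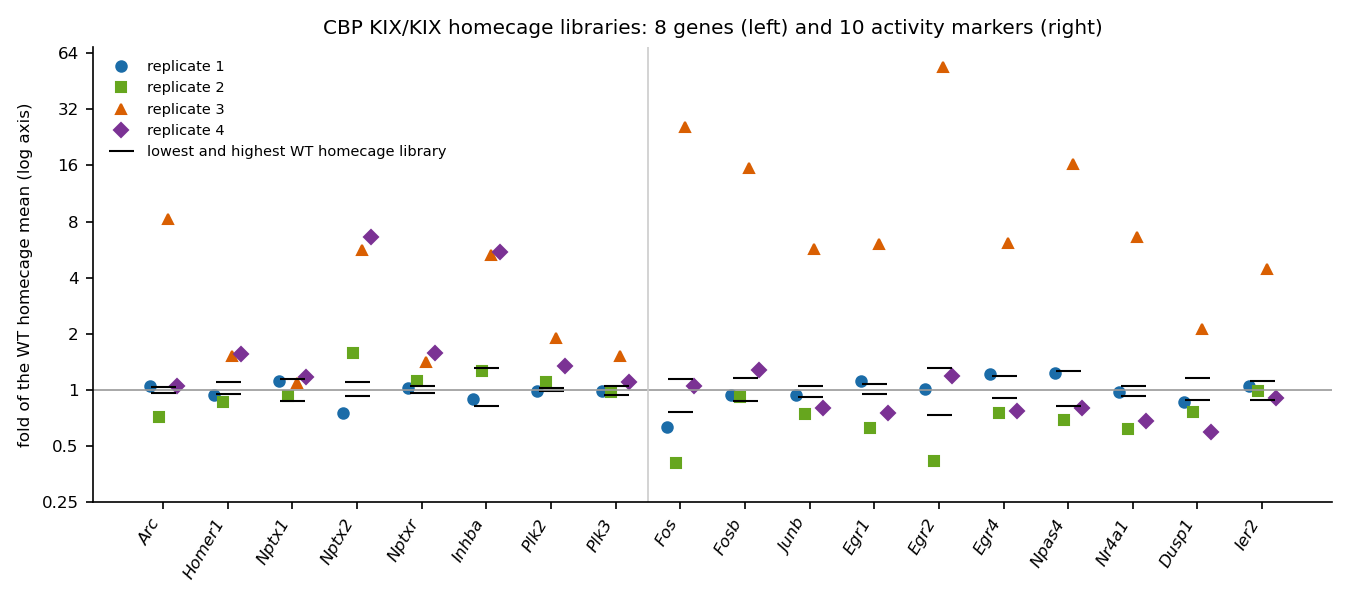
Level of the 8 genes and 10 activity markers in each CBP KIX/KIX homecage library as a fold of the WT homecage mean of RNA-Seq 2, on a log axis; dashes give the lowest and highest of the 3 WT homecage libraries. Replicates 3 and 4 are both high for Nptx2 and Inhba, and replicate 3 alone is high for Arc (8.30) and the activity markers.

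The third comparison, CBP KIX/KIX homecage against WT homecage, asked what the mutation does at baseline. No member passed, where 0.0265% of 18851 genes did. Nptx2 had a log2 fold change of 1.83 ± 0.51, Inhba 1.69 ± 0.50 and Arc 1.46 ± 0.63 (SE, edgeR adjusted p = 0.345, 0.368 and 0.467), values that rested on the libraries that stood apart. Without replicates 3 and 4 they were 0.23 ± 0.22, 0.15 ± 0.21 and -0.19 ± 0.14 (edgeR adjusted p = 0.990 for each). With replicate 1 left out instead, Nptx2 (2.18), Inhba (2.02), Plk2 (0.53) and Nptxr (0.45) passed (edgeR adjusted p from 0.00723 to 0.0411). Over all genes, leaving out any 1 library gave 1 to 445 calls in this comparison, against 5 with all libraries.

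The fourth comparison asked how CBP KIX/KIX mice respond to CFC, and the fifth whether that response differs from the WT one. Over all libraries, 0% of 18851 genes passed between CBP KIX/KIX CFC and homecage libraries (2457 at an unadjusted p under 0.05 and 301 by DESeq2), and Arc had a log2 fold change of 0.09 ± 0.55. Nptx2 had -2.12 ± 0.47 and Inhba -1.69 ± 0.45 (SE, edgeR adjusted p = 0.104 and 0.147). With homecage replicate 1 left out Nptx2, Nptxr, Inhba and Plk2 passed, and with homecage replicate 3 left out Arc passed. Over all genes, leaving out any 1 library gave 0 to 999 calls in this comparison. Homecage replicates 3 and 4 were then left out, a choice made after seeing the data. It removed the library with Arc at 617 CPM and left only replicates 1 and 2 as homecage mutants, so the values depend on it. In that fit Arc rose by 1.72 ± 0.14 in the mutants (SE, edgeR adjusted p = 4.20e-05), and the WT value was 1.61 ± 0.12. The difference between these responses was then 0.11 ± 0.17 on the log2 scale (SE, edgeR adjusted p = 1.00), against -1.53 ± 0.83 with all libraries (edgeR adjusted p = 0.950). Nptx2 in CBP KIX/KIX mice was at 20.3 ± 2.03 CPM after CFC (SD, n = 4) against 18.8 and 39.2 CPM in homecage replicates 1 and 2, a log2 fold change without replicates 3 and 4 of -0.52 ± 0.21 (SE, edgeR adjusted p = 0.548), and its WT value in that fit was 0.28 ± 0.19. Its difference in response was -0.80 ± 0.28 (SE, edgeR adjusted p = 1.00) without replicates 3 and 4 and -2.40 ± 0.69 (SE, edgeR adjusted p = 0.950) with them. It passed only without replicate 1 of the homecage mutants, at -2.76 (edgeR adjusted p = 0.0338). In that test of the difference 0% of 18851 genes passed (903 at an unadjusted p under 0.05 and 1 by DESeq2).

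**Figure D4:**
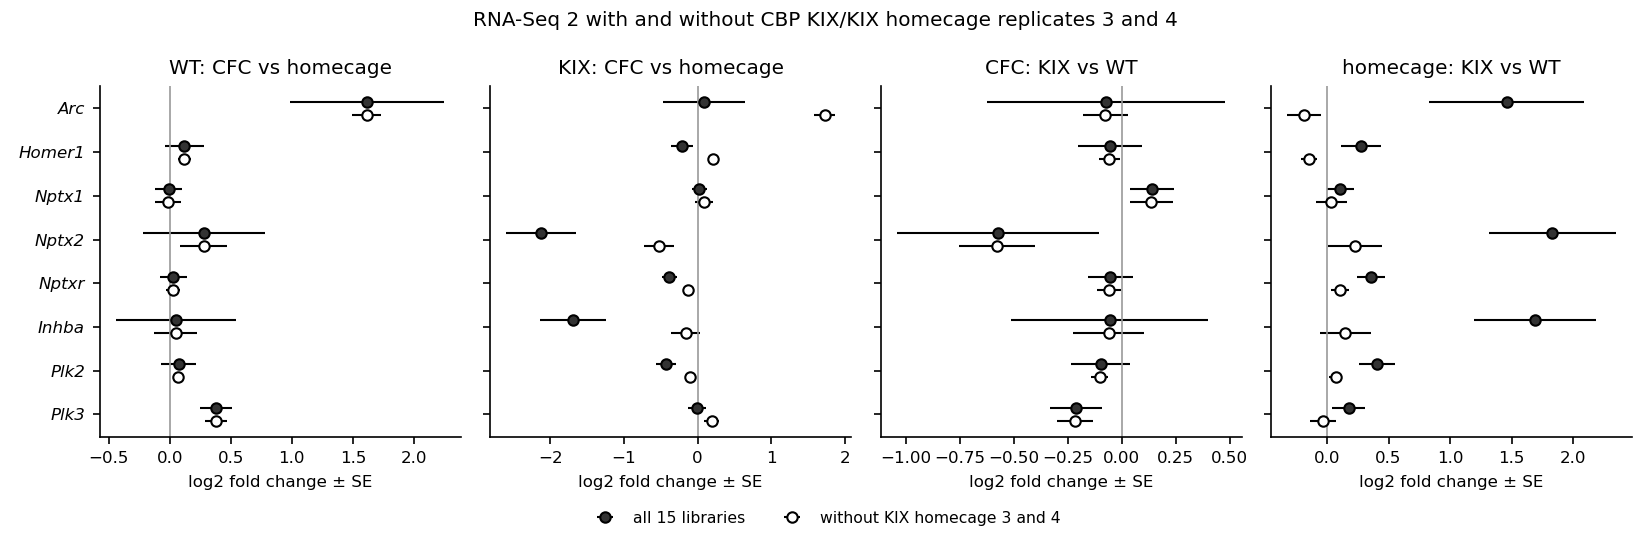
Log2 fold changes ± SE of the 8 genes in the 4 comparisons of RNA-Seq 2, with all 15 libraries (filled) and without CBP KIX/KIX homecage replicates 3 and 4 (open, chosen after seeing the data). Leaving them out moves Arc in the mutants from 0.09 to 1.72 for CFC against homecage and Nptx2 from 1.83 to 0.23 for CBP KIX/KIX against WT homecage, and moves Nptx2 for CBP KIX/KIX CFC against WT CFC from -0.57 to -0.58.

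Genes of the members' pathways were counted from lists. In WT training, where 0.794% of all genes tested passed, none of 11 tested genes of the pentraxin list, 17 of the Arc and AMPA receptor trafficking list, 13 of the Homer list, 9 of the Polo-like kinase list and 12 other activity-induced effectors passed, and list medians lay between -0.07 and 0.04. Of 17 tested genes of the activin pathway 1 passed, Inha, the inhibin subunit, which fell by 0.27 on the log2 scale (edgeR adjusted p = 0.0479). After training, 2 of 11 genes of the pentraxin list rose in CBP KIX/KIX libraries, Gria3, an AMPA receptor subunit (0.14; edgeR adjusted p = 0.0325), and C1ql3, a synaptic C1q-like protein (0.18; edgeR adjusted p = 0.0384). So did Grm5 (0.14), the metabotropic glutamate receptor that Homer1 binds, 1 of 13 of its list, Acvr2a (0.15), an activin receptor, 1 of 16 of its list, and Nrn1 (0.20), a neurite growth factor, 1 of 12 effectors (edgeR adjusted p = 0.0362, 0.0495 and 0.0322). None of 17 Arc partners and none of 9 Polo-like kinases and Plk2 substrates passed. Over all genes tested 2.42% passed. In the comparisons within one experiment no gene of these lists passed in any direction.

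The 3 genes whose levels followed each member most closely over 24 libraries, centred within the experiment, were named by Pearson's r among 18263 genes as a description. For Arc they were Egr2, Egr1 and Junb (0.983, 0.982 and 0.973), immediate-early transcription factors, and the same genes led without CBP KIX/KIX homecage replicates 3 and 4. For Plk3 they were Midn, Csrnp1 and Trib1 (0.909, 0.896 and 0.886), also without the pair. Nptx2 followed Trib2, Pmepa1 and Prss23 (0.941, 0.940 and 0.937) and Inhba followed Prss23, Trak2 and Otos (0.952, 0.921 and 0.921). Homer1 followed Ifrd1, Skil and Cyp51 (0.908, 0.904 and 0.870), and Plk2 followed Matn2, Zdhhc2 and Rasgrp1 (0.890, 0.878 and 0.852). Nptx1 was closest to Dagla, Slc8a2 and Wscd2 (0.904, 0.893 and 0.884) and Nptxr to Slc17a7, Dhcr7 and Ptprn (0.939, 0.934 and 0.933), Slc17a7 being the vesicular glutamate transporter of excitatory neurons. The points share libraries and depth. Without the pair of libraries, the closest genes of Nptx2 reached 0.835 at most and those of Inhba 0.712, and none of the 3 genes named for Nptx2 remained.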

How the data were processed

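Per the labels and the study's methods, the authors aligned reads to mm10 (GRCm38) with STAR in bcbio-nextgen, used SAMtools 1.6, and counted reads per gene with featureCounts 1.4.4. The deposited values are raw counts per gene. The strand setting and annotation release are not given in the sources used here. Symbols were taken from GENCODE M21. Samples were grouped by genotype, training and experiment as labelled.

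Counts were scaled by upper quartile, passed through filterByExpr, and fitted by the quasi-likelihood method of edgeR 4.0.16 in R 4.3.3, with Benjamini-Hochberg adjustment over all genes tested and a threshold of 0.05. Fits over both experiments had experiment as a term and RUVr factors of unwanted variation, 3 for training and 4 for genotype. The factors were computed with an implementation written for this work, and GC normalization, which the authors applied first, was an alternative. Fits within an experiment held all its groups, without factors. Levels are CPM within an experiment, and log2 CPM had a prior count of 2. Floors of 3 counts cover counting error only. Scripts were tested on simulated data. Alternatives were TMM, no filter, DESeq2 1.42.0, a replicate block, no factors, GC normalization, only the libraries compared, each library left out, and, chosen after seeing the data, 2 libraries left out together. Named genes were all 8 members, up to 6 called genes per pathway list by lowest p, and the 3 genes most correlated with each member. Marker genes and genes of the checks were named beside them. The members and lists were chosen with earlier results of these data known.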

Additional observations from a re-analysis of the deposited data

Results flagged for a closer look

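Of 24 pairs of a gene and a group of 4 libraries, 3 held 1 library whose gap to the nearest other library took most of the group's range (Dixon's test at 95%), and chance flags about 1 in 20 groups. Arc in CBP KIX/KIX homecage replicate 3 was at 617.4 CPM, against 53.2 to 77.9 CPM in the other 3 libraries of the group. Nptx1 in WT CFC replicate 2 was at 624.0 CPM, below 706 to 709.7 CPM in the others. Nptx1 in CBP KIX/KIX CFC replicate 2 was at 911.5 CPM, above 689.5 to 726 CPM in the others. Groups of 3 libraries were not examined in this way. Nptx2 and Inhba in CBP KIX/KIX homecage libraries, with a high pair and a low pair, did not meet the criterion.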

How the results depend on the processing

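Of 1376 values of a member in a comparison under an alternative, 1235 kept their direction and side of the threshold, 34 lost the call, 43 gained one and 64 changed sign, of which 0 had passed to begin with and 44 came from leaving out 1 library. The cause was not tested. Members passing after WT training over both experiments numbered 4, against 2 with no filter and 1 each with the replicate block, without RUVr factors and with GC normalization. For genotype after training 1 passed, against 2 with no filter, 3 by DESeq2 and 5 with the replicate block and RUVr factors together. In WT MWM against homecage 0 passed, against 1 with no filter and 2 by DESeq2. In WT CFC against homecage 0 passed, against 1 with only the libraries compared and 1 without CBP KIX/KIX homecage replicates 3 and 4. In CBP KIX/KIX CFC against homecage 0 passed, against 1 with no filter, 3 by DESeq2 and 1 without those libraries. Leaving out 1 library gave 1 to 5 members for training and 1 to 3 for genotype over both experiments, 0 to 4 for WT MWM, for CBP KIX/KIX homecage against WT homecage and for CBP KIX/KIX CFC against homecage, and 0 to 1 for genotype by training and for training by experiment.

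Replicate numbers were not taken as pairing, since not every same-numbered pair correlated above 0.1. Deviations of same-numbered samples correlated from -0.42 to 0.32 in RNA-Seq 1 (9 pairs, mean -0.03, against 0.02 for different numbers). In RNA-Seq 2 they correlated from -0.20 to 0.56 (21 pairs, mean 0.22, against -0.07), and 4 of 9 and 12 of 15 libraries correlated best with their own number, a hint from the data in RNA-Seq 2. With the replicate block alone, Arc (1.27) was the member that passed for training and Nptx2 (-0.49) for genotype. With the block and RUVr factors together Arc (-0.15), Nptx1 (0.08), Nptx2 (-0.50), Nptxr (-0.14) and Plk3 (-0.19) passed for genotype.

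Signs changed outside single left-out libraries as follows. With GC normalization Homer1 was -0.12 for genotype after training. For WT MWM against homecage Nptx2 was 0.031 with TMM, 0.0055 with no filter and 0.042 by DESeq2. For CBP KIX/KIX against WT after MWM, Nptx1 was -0.0095 with no filter, Inhba 0.017 with TMM and 0.0089 by DESeq2, and Plk2 0.023 with TMM, 0.016 by DESeq2 and 0.0068 with only the libraries compared. With the replicate block Nptxr was -0.011 and Inhba -0.040 for WT CFC against homecage. With no filter Nptx1 was -0.0072 for CBP KIX/KIX CFC against homecage. Without CBP KIX/KIX homecage replicates 3 and 4, Arc (-0.19), Homer1 (-0.15) and Plk3 (-0.033) changed sign at homecage, Homer1 (0.21) and Plk3 (0.19) for CBP KIX/KIX CFC against homecage, and Arc (0.11) and Homer1 (0.089) for genotype by training.

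Leaving out 1 library gave ranges across 0 for these values. For genotype over both experiments Homer1 ran from -0.0084 to 0.034 and Inhba from -0.095 to 0.026. For WT MWM Nptx2 ran from -0.14 to 0.058 and Plk3 from -0.0049 to 0.18. For CBP KIX/KIX against WT MWM, Nptx1 ran from -0.076 to 0.10, Inhba from -0.15 to 0.13 and Plk2 from -0.041 to 0.048. For WT CFC Nptx1 ran from -0.097 to 0.096 and Inhba from -0.074 to 0.26. For CBP KIX/KIX against WT CFC, Arc ran from -0.13 to 0.0084 and Inhba from -0.16 to 0.0016. Arc ran from -0.099 to 1.78 at homecage, from -0.24 to 1.65 for CBP KIX/KIX CFC against homecage and from -1.86 to 0.025 for genotype by training. Nptx1 ran from -0.082 to 0.066 and Plk3 from -0.083 to 0.15 for CBP KIX/KIX CFC against homecage, and Nptx1 from -0.079 to 0.12 for genotype by training. For genotype by experiment Inhba ran from -0.20 to 0.083 and Plk3 from -0.10 to 0.039.

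Over all genes, alternatives gave 9 to 992 calls for training (175) and 4 to 2877 for genotype (520) over both experiments, and leaving out 1 library 29 to 2415 and 201 to 881. Within one experiment they gave 1 to 131 for WT MWM (3), 0 to 7 for CBP KIX/KIX against WT MWM (0), 0 to 21 for WT CFC (0), 1 to 4 for CBP KIX/KIX against WT CFC (2), 1 to 58 at homecage (5) and 0 to 301 for CBP KIX/KIX CFC against homecage (0), 0 to 1 for genotype by training (0) and 1 to 29 for training by experiment (3). Leaving out 1 library gave up to 2418 for WT MWM, 445 at homecage, 999 for CBP KIX/KIX CFC against homecage, 63 for genotype by training and 892 for training by experiment.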

Other observations

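Per length, Nptx2 made up 3.88% ± 0.566 of the summed level of the 3 pentraxins in WT CFC libraries and 2.58% ± 0.266 in CBP KIX/KIX CFC libraries (SD, n = 4 each), with no overlap between the groups. After MWM training the shares were 5.16% ± 1.05 in WT and 4.31% ± 0.676 in CBP KIX/KIX libraries (SD, n = 3 each) and overlapped. In CBP KIX/KIX homecage libraries the share ran from 2.31% to 13.6%. No test was run on these shares, and the Nptxr level in them is uncertain.

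Among the members, levels of Nptx2 and Inhba correlated across 24 libraries, centred within the experiment, with Pearson's r = 0.916, Homer1 and Plk2 with 0.806, and Arc and Plk3 with 0.773. Without CBP KIX/KIX homecage replicates 3 and 4 the Arc and Plk3 value was 0.712, that of Homer1 and Plk2 0.639 and that of Nptx2 and Inhba 0.295. These values are descriptions over libraries that share groups and depth sets.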
